A study of Mus musculus with 12 samples.

Results

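The 7 genes described here encode the classical MHC class II chains of the C57BL/6 mouse (H2-Aa, H2-Ab1 and H2-Eb1), the invariant chain (Cd74), the peptide-loading factor H2-DM (H2-DMa and H2-DMb1) and the class II transactivator (Ciita). They were chosen by symbol from 55335 genes listed in each library, with earlier results of these data known. All 7 were among the 14357 genes that passed the filter on low counts. RNA was sequenced from bone marrow-derived dendritic cells (BMDC) in 4 groups of 3 libraries, which carried the CreER transgene on the C57BL/6 background with an intact Ctcf gene. Bone marrow was cultured with the cytokine GM-CSF for 6 days with a change of medium every 2 days, and the methods of the study add that CD11c+ cells were selected with microbeads. WT cells received neither agent. WTL cells received lipopolysaccharide (LPS), the bacterial product sensed by TLR4, at 100 ng/ml for 3 h. WT+JSH23 cells received JSH-23, a small molecule that blocks nuclear entry of the NF-κB subunit RelA, at 100 µM for 3 h. WTL+JSH23 cells received both agents, and the study describes JSH-23 as given ahead of LPS. The treatment label is the same for all samples, so the agents of each group were read from the sample titles. Which solvent or 4-hydroxytamoxifen treatment each library received is not given by the labels. Replicates were numbered 4 to 6 without JSH-23 and 1 to 3 with it, and the labels do not say whether these libraries were made together. If they were not, a difference between preparations and the effect of JSH-23 cannot be told apart.

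MHC class II molecules carry peptides from endocytosed antigens to the surface of dendritic cells, B cells and macrophages, where CD4+ T cells read them. The α and β chains assemble in the endoplasmic reticulum with the invariant chain, which fills the groove and directs the complex to endosomes. There cathepsins degrade the invariant chain, and H2-DM exchanges the remaining fragment for antigenic peptide. Transcription of nearly all of these genes depends on CIITA, a co-activator that binds no DNA itself and docks on factors (RFX, CREB and NF-Y) bound to the conserved S, X and Y boxes of class II promoters. LPS matures dendritic cells, which brings stored class II molecules to the surface and is known to shut off Ciita transcription over a longer time than was sampled here.

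The boxes that bring CIITA to class II genes could be read in RefSeq promoter sequence (GRCm38.p6). A core of the X box, AAC, followed after 25 to 27 bases by a core of the Y box, GATTGG, the reverse complement of a CCAAT motif, was searched within 250 bases before each gene start, and this pair was defined after the sequences had been looked at. On the strand of the gene, H2-Aa, H2-Eb1 and H2-DMb1 held the pair and H2-DMa did not. The table held no entry for H2-Ab1 or Ciita, and Cd74 was not looked up. Of further class II chains, H2-Eb2, H2-DMb2 and H2-Oa held the pair and H2-Ob did not. Over the table, 84 of 32851 promoters (0.256%) held the pair on the strand of the gene. On either strand 199 promoters (0.606%) held it, whereas GATTGG alone occurred on either strand in 14.6%. The 3 stretches below show the pair in the 2 classical members and, for comparison, in H2-Eb2, a further class II β chain. Capitals mark AAC, GATTGG and, in H2-Aa, the palindrome TGACGTCA of the CREB-binding X2 box, which lies between them and was found in 1.55% of promoters. The H2-Aa stretch is chr17:34287843-34287942 on the minus strand, that of H2-Eb1 is chr17:34305738-34305836 on the plus strand and that of H2-Eb2 is chr17:34325505-34325603 on the plus strand.
H2-Aa: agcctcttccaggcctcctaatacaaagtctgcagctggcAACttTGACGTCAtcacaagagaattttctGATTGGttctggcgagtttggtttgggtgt
H2-Eb1: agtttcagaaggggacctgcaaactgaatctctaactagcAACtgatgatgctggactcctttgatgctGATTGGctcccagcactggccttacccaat
H2-Eb2: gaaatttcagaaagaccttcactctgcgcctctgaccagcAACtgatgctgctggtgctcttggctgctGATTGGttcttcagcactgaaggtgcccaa
The spacer between the cores was 27 bases in H2-Aa and H2-DMb1 and 26 in H2-Eb1. The stretches shown lie outside annotated exons, and the stretch of H2-DMb1 is not shown because it lies in one. A match of letters is a description of these windows and not evidence of a bound factor.

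Expected counts per library totalled between 24664724 and 34837847, and the 7 genes took between 1.52% and 1.76% of them. The markers of dendritic cells were present in every library, with Itgax (CD11c) between 578 and 673 CPM (counts scaled to the library size), and 6 of 7 B cell markers had at most 10 counts in any library. Cd209a, of the 7 dendritic cell markers, also had at most 10 counts. The summed level of 10 macrophage markers ranged from 2706 to 2882 CPM in WT, 2106 to 2225 in WTL, 2019 to 2062 in WT+JSH23 and 1707 to 1720 in WTL+JSH23. This list was lower with either agent on TMM scaling. In WTL 7 of 10 markers were lower than in WT, against 34.7% of all genes. In WT+JSH23 7 of 10 were lower than in WT, against 22.1% of all genes. The summed level of the 7 dendritic cell markers ranged from 784 to 815 CPM in WT, 849 to 856 in WTL, 708 to 749 in WT+JSH23 and 777 to 799 in WTL+JSH23. Markers of neutrophils summed to 43.8 to 49.3 CPM in WT, 62.0 to 63.0 in WTL, 41.6 to 46.0 in WT+JSH23 and 44.8 to 49.4 in WTL+JSH23. Of the 6 neutrophil markers tested, 4 were higher in WTL than in WT and 6 were lower in WTL+JSH23 than in WTL on TMM scaling. Of all genes, 31% were higher in the first comparison and 24.2% lower in the second. With library totals the counts of neutrophil markers were 1 and 3. B cell markers summed to 2.56 to 5.68 CPM in any library, and those of T cells to at least 7.37 CPM in WT and at most 5.37 CPM in the other groups. The part of these lists in the results was not tested. WTL+JSH23 replicate 3 stood apart from its group, with a chi-square per degree of freedom over genes of 8.18 and 9.11 against the 2 other libraries, compared with 2.33 to 4.50 for all other pairs of replicates. In such bulk samples, fewer cells of a type and less RNA per cell cannot be told apart.

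Levels of different genes can be compared only per transcript length, for which the deposited TPM values, which are scaled by transcript length, were used. Cd74 ranked between 6 and 7 among all genes of a library, with 12317 to 14374 TPM. The classical chains followed closely together, with H2-Aa at 4081 to 4692 TPM, H2-Eb1 at 3311 to 3848 TPM and H2-Ab1 at 3257 to 3971 TPM. The subunits of H2-DM lay about an order of magnitude lower, with H2-DMb1 at 151 to 269 TPM and H2-DMa at 126 to 240 TPM. Ciita was the lowest of the 7, at 76.5 to 149 TPM. In GENCODE M21 (GRCm38), H2-Ab1 lies at chr17:34257689-34269419, H2-Aa at chr17:34282744-34287823, H2-Eb1 at chr17:34305867-34316674, H2-DMa at chr17:34119541-34139101 and H2-DMb1 at chr17:34153072-34160230. All 5 thus lie within the H2 complex, while Ciita is at chr16:10480059-10528418 and Cd74 is on chromosome 18. All other levels below are CPM with edgeR's TMM factors, which compare a gene between libraries.

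The changes of the presentation genes within 3 h of LPS were modest. On TMM scaling, 6 of the 7 genes rose and H2-DMa fell in WTL against WT by edgeR's quasi-likelihood test with Benjamini-Hochberg adjustment, but H2-Aa, Cd74 and Ciita fell, and H2-Eb1 lost its call at a value just below 0, when libraries were scaled by their totals or when TPM was tested. The background was dense, since 65.7% of all genes tested passed in this comparison (31% higher and 34.7% lower), so a count of 7 of 7 is to be read against that share. None of the 7 changed by more than 2-fold, as 16.4% of all genes did. The scalings differ because the median gene stood at -0.05 (log2) with TMM, at -0.38 with library totals and at -0.30 in TPM. Of all calls, 47.2% were higher with TMM, 19.7% with library totals and 19.6% in TPM. Subtracting the median gene removes the factor between count scalings by construction, so only TMM and TPM are given here. Relative to that median, H2-DMb1 stood at 0.58 (log2) with TMM and 0.48 in TPM, H2-Ab1 at 0.50 and 0.41, H2-Eb1 at 0.35 and 0.26, Cd74 at 0.27 and 0.18, H2-Aa at 0.26 and 0.17, and Ciita at 0.20 and 0.16. H2-DMa stood below the median gene, at -0.07 with TMM and -0.16 in TPM.

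**Figure D1:**
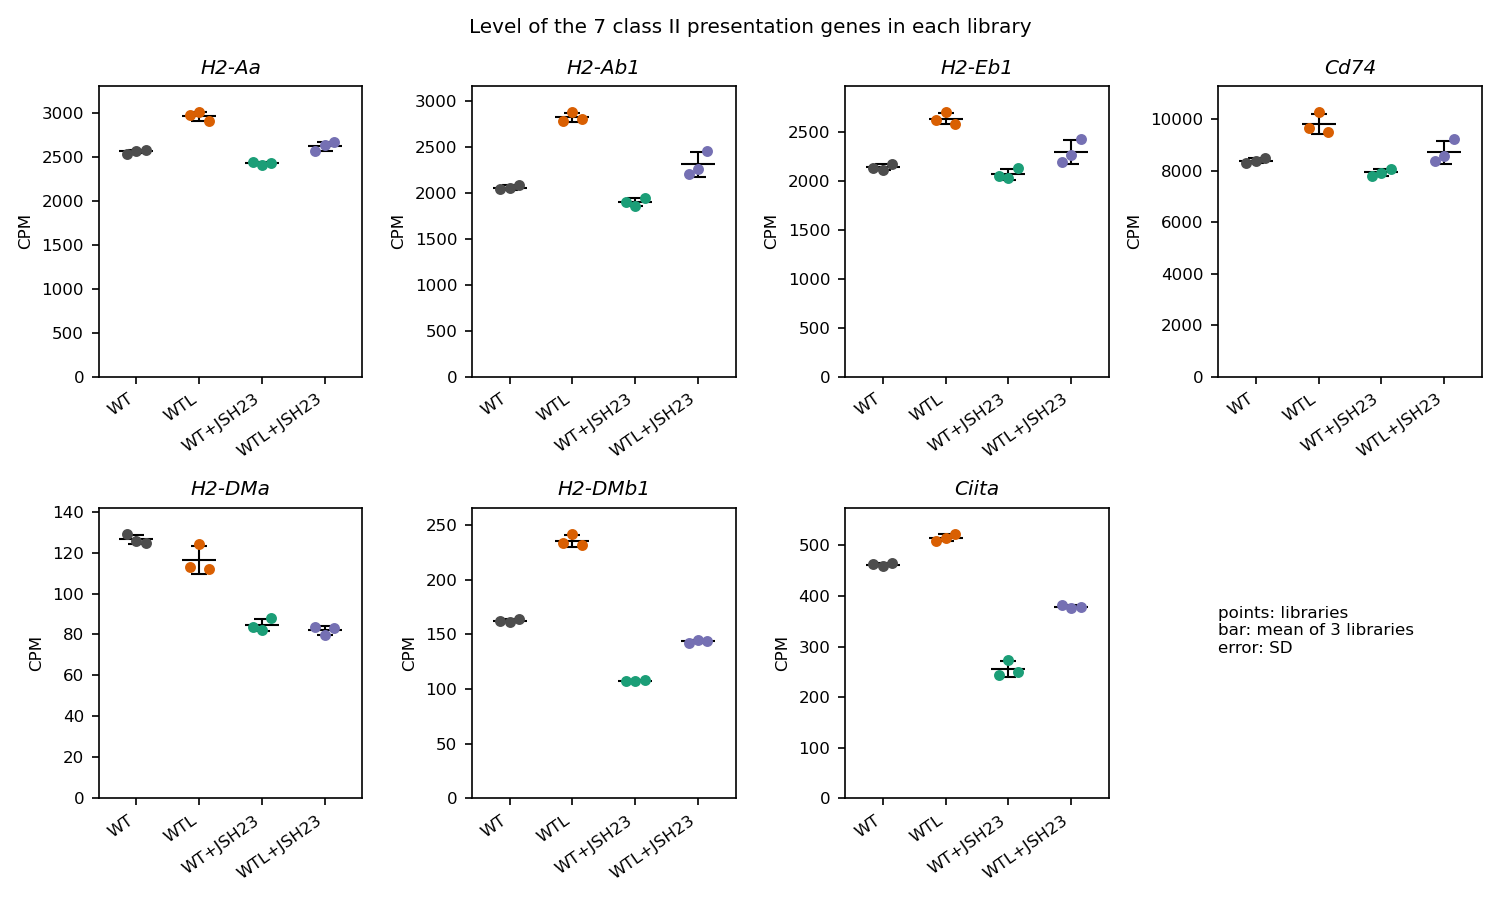
Level of the 7 genes in each of the 12 libraries in CPM after TMM scaling, one panel per gene, with the mean and SD of 3 libraries per group. For Ciita, WT+JSH23 libraries lay between 244 and 273 CPM and all other libraries at 376 CPM or above, and on this scaling each classical chain and Cd74 was highest in the 3 WTL libraries.

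Among the classical chains, H2-Ab1, the β chain of I-A, responded most. Its level was 2043, 2051 and 2086 CPM in WT and 2789, 2879 and 2806 CPM in WTL, and 1897, 1859 and 1943 CPM in WT+JSH23 and 2209, 2263 and 2463 CPM in WTL+JSH23. On TMM scaling the 4 groups did not overlap and stood in the order WT+JSH23, WT, WTL+JSH23 and WTL, with each step past the test, but WTL+JSH23 against WT, 0.17 (log2) with TMM, was -0.036 with library totals and -0.053 in TPM. LPS raised H2-Ab1 1.37-fold without JSH-23 (log2 0.46 ± 0.04 SE, adjusted p = 1.02e-09) and 1.22-fold with it (0.28 ± 0.04, adjusted p = 2.09e-06). Without JSH-23 the change was 0.13 with library totals and 0.12 in TPM, both past the test. With JSH-23 the call was lost with library totals (0.04, adjusted p = 0.283).

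H2-Aa, the α chain that pairs with H2-Ab1, had 2535, 2566 and 2574 CPM in WT, 2969, 3002 and 2906 CPM in WTL, 2439, 2409 and 2431 CPM in WT+JSH23, and 2559, 2627 and 2661 CPM in WTL+JSH23. On TMM scaling WTL stood above all other libraries, whereas WT and WTL+JSH23 overlapped and did not pass a test against each other (log2 0.03, adjusted p = 0.393), a value that was -0.17 with library totals and -0.18 in TPM. This is a comparison in which 62.1% of all genes passed and 66% did not overlap on TMM scaling. On TMM scaling the LPS change was 1.16-fold without JSH-23 (log2 0.21 ± 0.03 SE) and 1.08-fold with it (0.11 ± 0.03), and both changed sign with library totals and in TPM. H2-Eb1, the β chain of I-E, had 2129, 2112 and 2167 CPM in WT, 2618, 2695 and 2582 CPM in WTL, 2042, 2022 and 2129 CPM in WT+JSH23, and 2186, 2256 and 2422 CPM in WTL+JSH23. Its 2 groups without LPS overlapped, and both groups with LPS lay above them on TMM scaling by 1.23-fold (0.30 ± 0.04) and 1.11-fold (0.15 ± 0.04), again with the sign turned by library totals and in TPM. The I-E α chain is not made in C57BL/6 mice because its gene lacks a functional promoter, and the H2-Ea-ps locus had 0 to 9 counts per library.

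Cd74, the invariant chain, followed the classical chains at a higher level. It had 8291, 8382 and 8489 CPM in WT and 9653, 10260 and 9509 CPM in WTL, and 7803, 7911 and 8067 CPM in WT+JSH23 and 8372, 8551 and 9209 CPM in WTL+JSH23. The rise with LPS on TMM scaling was 1.17-fold without JSH-23 (log2 0.23 ± 0.04 SE, adjusted p = 2.35e-05) and smaller with it (0.14 ± 0.04, adjusted p = 0.00466), and it became a fall with library totals (-0.10 and -0.10) and in TPM (-0.11 and -0.08). On TMM scaling WT and WTL+JSH23 overlapped (log2 0.05, adjusted p = 0.223), whereas the value was -0.15 with library totals and -0.17 in TPM.

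**Figure D2:**
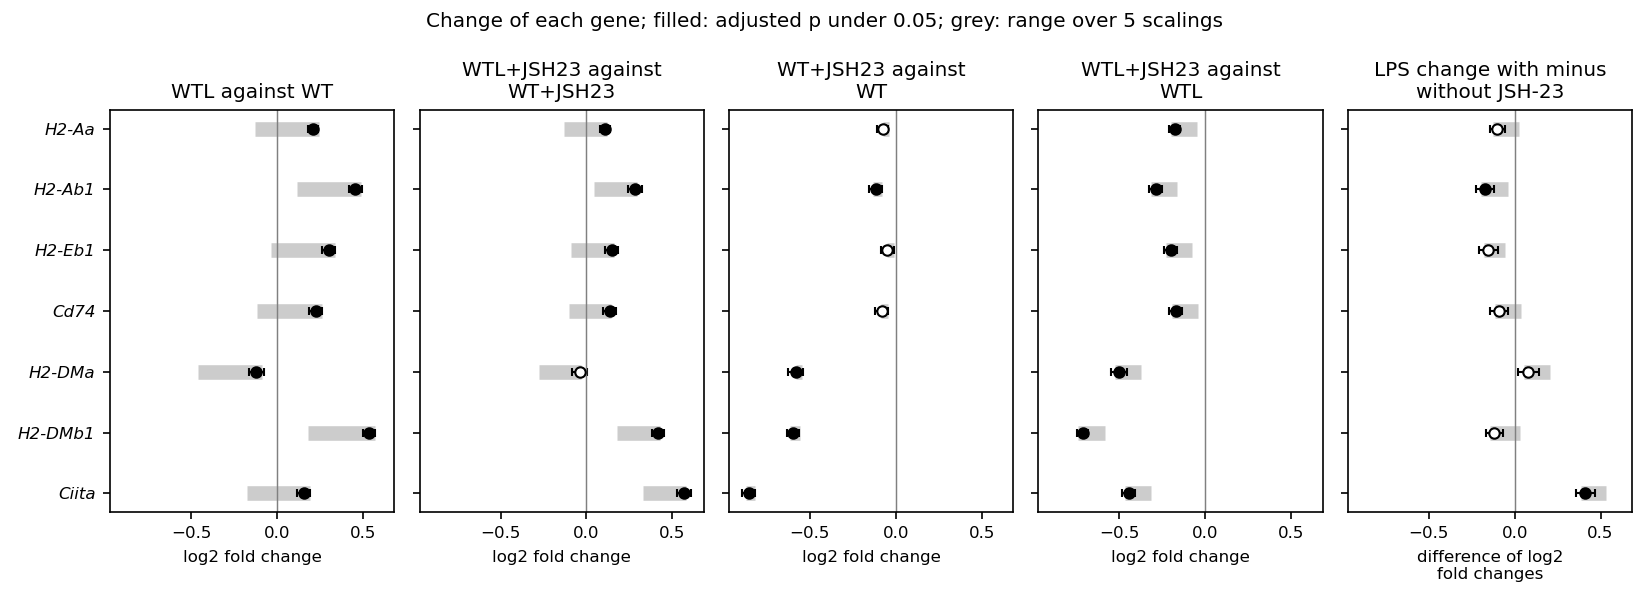
Log2 fold change ± SE of each gene in the 4 comparisons and the difference between the 2 LPS changes, on TMM scaling, with filled points for an adjusted p under 0.05 and grey bars for the range over 5 scalings. The grey bars of H2-Aa, H2-Eb1 and Cd74 cross 0 for both LPS comparisons and that of Ciita for WTL against WT only, while none of the 7 crosses 0 for either JSH-23 comparison.

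The 2 subunits of H2-DM, whose proteins form 1 heterodimer, differed in their response to LPS. H2-DMb1 had 162, 161 and 164 CPM in WT and 234, 242 and 232 CPM in WTL, a rise of 1.45-fold (log2 0.54 ± 0.03 SE, adjusted p = 9.30e-12). With JSH-23 it had 107, 107 and 108 CPM and, after LPS, 142, 145 and 144 CPM, a rise of 1.34-fold (0.42 ± 0.04, adjusted p = 1.64e-09). No library of 1 group overlapped those of another, and the rise passed the test under 5 of 5 scalings in each JSH-23 state, with 0.21 and 0.18 with library totals and 0.18 and 0.21 in TPM, without and with JSH-23. H2-DMa had 129, 126 and 125 CPM in WT and 113, 124 and 112 CPM in WTL, with a log2 change of -0.12 ± 0.04 (adjusted p = 0.0199). That call was lost without WT replicate 4 (-0.11, adjusted p = 0.076), WTL replicate 4 (-0.10, adjusted p = 0.0947) or WTL replicate 6 (-0.09, adjusted p = 0.103), and with DESeq2 (-0.09, adjusted p = 0.106). It was larger with library totals (-0.45) and in TPM (-0.46). With JSH-23, H2-DMa had 83.5, 82.1 and 87.8 CPM without LPS and 83.9, 79.7 and 83.0 CPM with it, and these libraries overlapped on TMM scaling (-0.04 ± 0.05, adjusted p = 0.481). The same change passed with upper quartile scaling (-0.12), with library totals (-0.28) and in TPM (-0.25). Both genes had fractional expected counts in all 12 libraries. H2-DMb1 has a near-identical neighbour, H2-DMb2, and exons of H2-DMa overlap Brd2 on the other strand, which rose by 0.32 (log2) with LPS, so reads of these genes may have been divided between neighbours.

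Ratios within a library do not depend on the scaling between libraries. The TPM ratio of H2-DMa to H2-DMb1 was 0.9996 ± 0.0135 (SD, n = 3) in WT and 0.641 ± 0.0233 in WTL, and 1.03 ± 0.0353 in WT+JSH23 and 0.742 ± 0.033 in WTL+JSH23. The log2 ratio fell by 0.55 with LPS over both JSH-23 states (exact permutation test within JSH-23 state over 400 arrangements, two-sided, p = 0.005, adjusted p = 0.005 over 4 ratios), which is the smallest p these arrangements allow. Against H2-Ab1, the ratio of H2-Aa fell by 0.21, that of Cd74 by 0.19 and that of H2-Eb1 by 0.16 on the log2 scale, each with the same exact p of 0.005. H2-Aa stood at 1.29 ± 0.00888 times H2-Ab1 in WT and 1.09 ± 0.0165 times in WTL, in TPM. In all 4 ratios the libraries with LPS lay below those without it within each JSH-23 state. Hence the class II genes did not change by a common factor with LPS, whichever scaling is used.

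**Figure D3:**
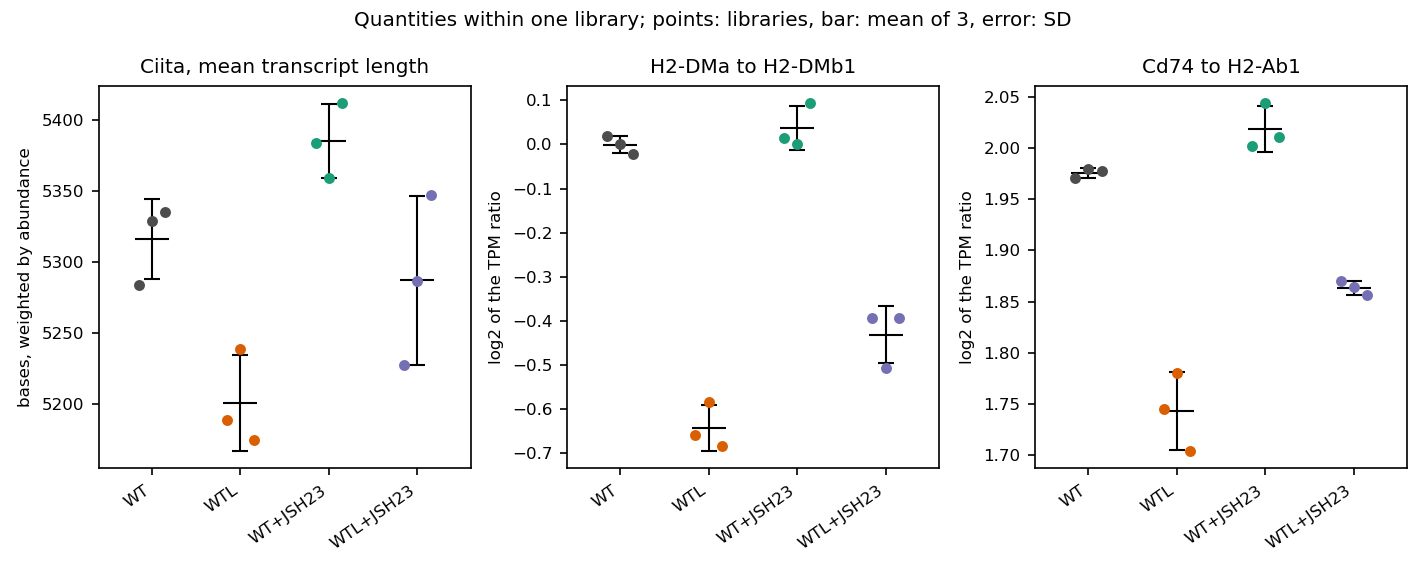
Abundance-weighted mean transcript length of Ciita (bases) and log2 TPM ratios of H2-DMa to H2-DMb1 and of Cd74 to H2-Ab1 in the 12 libraries, with mean and SD of 3 libraries per group. Within each JSH-23 state the points with LPS lie below those without it in all 3 panels, with group means of 5316 and 5201 bases for Ciita in WT and WTL.

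Ciita, the regulator, differed from the classical chains and Cd74 in its pattern over the groups. It stood at 462, 459.7 and 465 CPM in WT, 508, 515 and 523 CPM in WTL, 244, 273 and 249 CPM in WT+JSH23, and 382, 376 and 378 CPM in WTL+JSH23. No 2 groups overlapped, and both groups with JSH-23 lay below both without it, as they also did for H2-DMa and H2-DMb1. JSH-23 alone lowered Ciita 1.81-fold, to 55.2% of WT (log2 -0.86 ± 0.04 SE, adjusted p = 2.01e-13), and in the presence of LPS 1.36-fold, to 73.5% of WTL (-0.44 ± 0.04, adjusted p = 3.57e-09). LPS raised it 1.48-fold in JSH-23-treated cells (0.57 ± 0.04, adjusted p = 5.74e-11), which passed under 5 of 5 scalings with values from 0.33 to 0.58. Without JSH-23 the LPS change on TMM scaling was 1.11-fold (0.16 ± 0.04, adjusted p = 0.00118), and it was -0.17 with library totals and -0.14 in TPM.

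The change with LPS was therefore larger for Ciita in the presence of the inhibitor. The difference between the 2 LPS changes was 0.41 ± 0.05 SE (log2, adjusted p = 2.08e-05), it was 0.39 to 0.53 over 5 scalings and it passed without any 1 of the 12 libraries. Of all genes tested, 18% passed in this test of the difference, 9.54% upward and 8.44% downward, and 1.34% past 2-fold, which none of the 7 reached. H2-Ab1 passed in the other direction (-0.17 ± 0.05, adjusted p = 0.0309), as its LPS change was smaller with JSH-23. That call was lost with library totals (-0.08), in TPM (-0.04) and without any 1 of WT replicate 4 or 5, WTL replicate 5, WT+JSH23 replicate 1 or 3, or WTL+JSH23 replicate 1 or 2 (adjusted p = 0.0568 to 0.102). Without WTL+JSH23 replicate 3, 4 genes passed in place of 2, adding H2-Eb1 (-0.20, adjusted p = 0.0044) and Cd74 (-0.13, adjusted p = 0.0481). With all libraries the values were -0.15 for H2-Eb1 (adjusted p = 0.0552), -0.12 for H2-DMb1, -0.10 for H2-Aa, -0.09 for Cd74 and 0.08 for H2-DMa, none past the test.

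JSH-23 lowered the regulator and the H2-DM subunits more than the classical chains. In LPS-treated cells, WTL+JSH23 against WTL, all 7 genes were lower, against 24.2% of all genes lower, 24.5% higher and 48.7% changed in either direction, and under library totals 4 of the 7 passed. H2-DMb1 fell by 0.71 (log2, 1.64-fold lower, adjusted p = 3.44e-13) and H2-DMa fell by 0.50 (1.42-fold lower, adjusted p = 6.20e-09). The classical chains and Cd74 stood between 0.82 and 0.89 times their level in WTL, with log2 changes of -0.29 for H2-Ab1, -0.20 for H2-Eb1, -0.18 for H2-Aa and -0.17 for Cd74. Without WTL+JSH23 replicate 3 these were -0.34, -0.24, -0.19 and -0.21. None of the 7 passed 2-fold, as 7% of all genes did.

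In cells without LPS, WT+JSH23 against WT, 4 of the 7 genes were lower, against 22.1% of all genes lower, 18.8% higher and 41% changed in either direction. Besides Ciita these were H2-DMb1 (log2 -0.60 ± 0.03 SE, adjusted p = 9.26e-12), H2-DMa (-0.58 ± 0.04, adjusted p = 5.37e-10) and H2-Ab1 (-0.12 ± 0.04, adjusted p = 0.0181). The H2-Ab1 call was lost without WT replicate 6 (-0.11, adjusted p = 0.0669) or WT+JSH23 replicate 2 (-0.10, adjusted p = 0.0705), and with library totals (-0.08, adjusted p = 0.077). H2-Aa had -0.08 ± 0.03 (adjusted p = 0.0572), Cd74 -0.08 ± 0.04 (adjusted p = 0.0949) and H2-Eb1 -0.05 ± 0.04 (adjusted p = 0.334). H2-Aa (adjusted p = 0.037) and Cd74 (adjusted p = 0.0382) passed when WTL+JSH23 replicate 3, which is in neither group but adds to the estimate of the spread, was left out. The comparison of LPS with JSH-23 present, WTL+JSH23 against WT+JSH23, called 6 of the 7 genes, all higher on TMM scaling, against 27.4% of all genes higher, 27.1% lower and 54.5% changed, and none past 2-fold, as 10.3% were. With library totals or TPM, H2-Aa, H2-Eb1 and Cd74 had values below 0. Without replicate 3 of WTL+JSH23 the same count of 6 was reached. The 4 comparisons share groups, so their counts are not independent.

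The libraries of the 2 groups did not overlap for 7 of the 7 genes in WTL against WT, as for 69.9% of all genes tested. For WTL+JSH23 against WT+JSH23 this held for 6 genes (59.1% of all genes), for WTL+JSH23 against WTL for 7 (54.8%) and for WT+JSH23 against WT for 6 (51.5%).

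The mean length of the transcripts counted for Ciita differed with LPS. RSEM gives each gene a length averaged over its annotated transcripts and weighted by their estimated abundance. Ciita has several promoters, and its 8 annotated transcripts differ in start, end and length. The longest, Ciita-201 with 6007 bases, ends at chr16:10528418. Ciita-205 and Ciita-206, with 4237 and 4360 bases, start upstream of it and end at 10526426. The mean length therefore does not tell a change of promoter from a change of transcript end. This length was 5316 ± 28.1 bases (SD, n = 3) in WT and 5201 ± 33.7 in WTL, and 5385 ± 26.2 in WT+JSH23 and 5287 ± 59.7 in WTL+JSH23. The LPS difference was -107 bases (exact permutation test within JSH-23 state, two-sided, p = 0.005, adjusted p = 0.0175 over 7 genes), with no overlap of libraries within a JSH-23 state. The call was lost without any 1 of the WT+JSH23 libraries (adjusted p = 0.0525 in the exact test). H2-Ab1 differed by -2.41 bases (the same exact p, lost likewise) and the other 5 genes did not pass. Exons of Ciita overlap Dexi on the other strand, which rose by 0.67 (log2) with LPS from 28.7 to 45.6 CPM. Which transcript of Ciita changed was not analysed here.

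Over the 12 libraries, the log2 levels of H2-Aa, H2-Ab1, H2-Eb1 and Cd74 correlated with each other at r = 0.971 to 0.99. The levels of Ciita correlated with theirs at 0.675 to 0.783 and with that of H2-DMb1 at 0.93. H2-DMb1 also correlated with the classical chains and Cd74, at 0.862 to 0.944. H2-DMa correlated at 0.321 to 0.462 with the classical chains and Cd74 and at 0.763 with Ciita. These points share the 4 groups and their scaling, so r describes the pattern over groups. Of 7849 other genes with at least 10 CPM on average, those most like Ciita were Sema6d (r = 0.993), Rfx5 (0.988), Ccdc88b (0.985), Atp10d and Slc7a8. Rfx5 encodes a subunit of the RFX complex that binds the X box, and had 52.7 ± 0.233 CPM in WT, 57.0 ± 2.21 in WTL, 35.3 ± 0.803 in WT+JSH23 and 46.9 ± 1.94 in WTL+JSH23. Sema6d, a semaphorin, had 389 ± 5.7 CPM in WT, 532 ± 8.39 in WTL, 143 ± 11.5 in WT+JSH23 and 282 ± 5.05 in WTL+JSH23. The most opposite patterns to Ciita were those of Ass1 (r = -0.983), Tmem65, Slc40a1, Mgst1 and Amd1. Slc40a1, the iron exporter ferroportin, was at 19.96 ± 1.14 CPM in WT, 14.2 ± 0.406 in WTL, 123.5 ± 12.1 in WT+JSH23 and 57.4 ± 4.06 in WTL+JSH23. The mean profile of H2-Aa, H2-Ab1, H2-Eb1 and Cd74 was most like those of Isg15 (r = 0.994), Ppp4c, Arhgdia, Pfn1 and Rtf2. Isg15, an interferon-induced ubiquitin-like modifier, had 467 ± 7.78 CPM in WT, 938 ± 43.2 in WTL, 357 ± 21.0 in WT+JSH23 and 577 ± 76.3 in WTL+JSH23.

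The remaining class II chains were mostly higher with LPS and lower with JSH-23 on TMM scaling. Of 5 listed, H2-Eb2, H2-DMb2, H2-Oa and H2-Ob were tested. With LPS 3 rose on TMM scaling, as did 31% of all genes. The median was 0.48 (log2) against -0.05 over all genes. H2-Ob, the β chain of H2-DO, a modulator of H2-DM, changed most (0.76 ± 0.10 SE, from 5.06 ± 0.377 to 8.505 ± 0.812 CPM), followed by H2-Eb2 (0.64 ± 0.06) and H2-DMb2 (0.32 ± 0.06). With library totals 2 genes rose and 1 fell. With JSH-23 in LPS-treated cells all 4 fell, from -0.76 for H2-Eb2 to -0.29 for H2-Oa, against 24.2% of all genes lower. Under library totals 3 passed. In cells without LPS 3 of the 4 fell, against 22.1% of all genes lower.

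Genes of antigen and invariant chain processing went both ways. The list of 8 held Cst3, the gene of a cathepsin inhibitor, beside genes of enzymes. With LPS on TMM scaling 3 of 8 rose, Cst3 among them (log2 0.36), and 3 fell. These counts were near the shares of all genes (31% higher and 34.7% lower). With library totals 0 rose and 5 fell, where 2106 of 14357 genes rose and 8601 fell. Ctsl, the gene of cathepsin L, stood higher by 0.38 on TMM scaling (log2, from 128 to 167 CPM), and Ifi30, a thiol reductase of endosomes, fell by 0.59 (from 184 to 122 CPM). JSH-23 raised 5 of 8 in each LPS state on TMM scaling, where 18.8% of all genes were higher without LPS and 24.5% with it. Ctsl was highest in both states (0.53 without and 0.65 with LPS). Ctss, the protease that removes invariant chain in dendritic cells, was at 2118 ± 50.7 CPM in WT and 1979 ± 46.6 in WTL. Of 3 genes of class II turnover, Cd83, which holds class II at the surface, rose with LPS (0.65, from 321 to 503 CPM). March1, the ubiquitin ligase that removes class II from the surface, was 121, 129 and 119 CPM in WT and 57.7, 59.2 and 52.5 CPM in WT+JSH23, a fall of 1.13 (log2), and 103 to 104 CPM in WTL and 36.1 to 53.0 CPM in WTL+JSH23, a fall of 1.18. It was the only gene of the pathway lists past 2-fold with JSH-23, as 5.37% of all genes were without LPS and 7% with it. March8, with a fall of 0.27, changed most downward with LPS.

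Among the factors that CIITA docks on, the largest rise with LPS on TMM scaling was Nfyb, a subunit of the Y box factor (0.77, from 12.8 to 21.8 CPM), and the largest fall Rfxank, a subunit of RFX (-0.57, from 10.9 to 7.33 CPM). In all 3 of 7 rose and 1 fell, against 31% and 34.7% of all genes. With library totals 1 rose and 6 fell, again with 2106 of 14357 genes higher and 8601 lower. Rfx5 fell by 0.58 with JSH-23 without LPS and by 0.28 with it, while Rfxank rose by 0.22 and 0.39. Without WTL+JSH23 replicate 3, 1 gene of this list in place of 2 was higher with JSH-23 in LPS-treated cells.

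Of 7 known regulators of Ciita, 6 fell with JSH-23 in each LPS state on TMM scaling. The repressor Prdm1 was among those that fell (log2 -0.56 without LPS and -0.38 with it), so the count is not one of activators only. Of all genes, 22.1% were lower with JSH-23 in cells without LPS and 24.2% in cells with it. The regulators had a median of -0.37 (log2) without LPS and -0.38 with it, against -0.01 and 0.02 over all genes. With library totals 6 of the 7 fell as well. Irf1, an activator of Ciita downstream of interferon, stood at 270, 275 and 273 CPM in WT, 702, 711 and 671 CPM in WTL, 171, 174 and 180 CPM in WT+JSH23 and 553, 569 and 580.5 CPM in WTL+JSH23. Its LPS change was larger with JSH-23 than without it (1.70 against 1.35, difference 0.35 ± 0.05 SE, adjusted p = 7.0e-05). Spi1 (PU.1), which drives the dendritic cell promoter of Ciita, had 364 ± 8.27 CPM in WT and 286 ± 3.06 in WT+JSH23. The LPS change of Spi1 was lower with JSH-23 (-0.13 against 0.22, difference -0.36 ± 0.05 SE, adjusted p = 3.63e-05). That of Irf8 was lower as well (difference -0.21 ± 0.06 SE, adjusted p = 0.0154). In this test of the difference, 1 of the 7 regulators passed upward and 2 downward. With LPS 5 of the 7 rose and 2 fell on TMM scaling, against 31% and 34.7% of all genes. With library totals 4 of the 7 rose and 3 fell. Irf4 rose most (1.41, from 123 to 327 CPM), Usf1 fell most (-0.49, from 52.5 to 37.4 CPM), and Prdm1, whose product BLIMP-1 represses Ciita, rose by 1.01 (from 31.4 to 63.0 CPM).

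**Figure D4:**
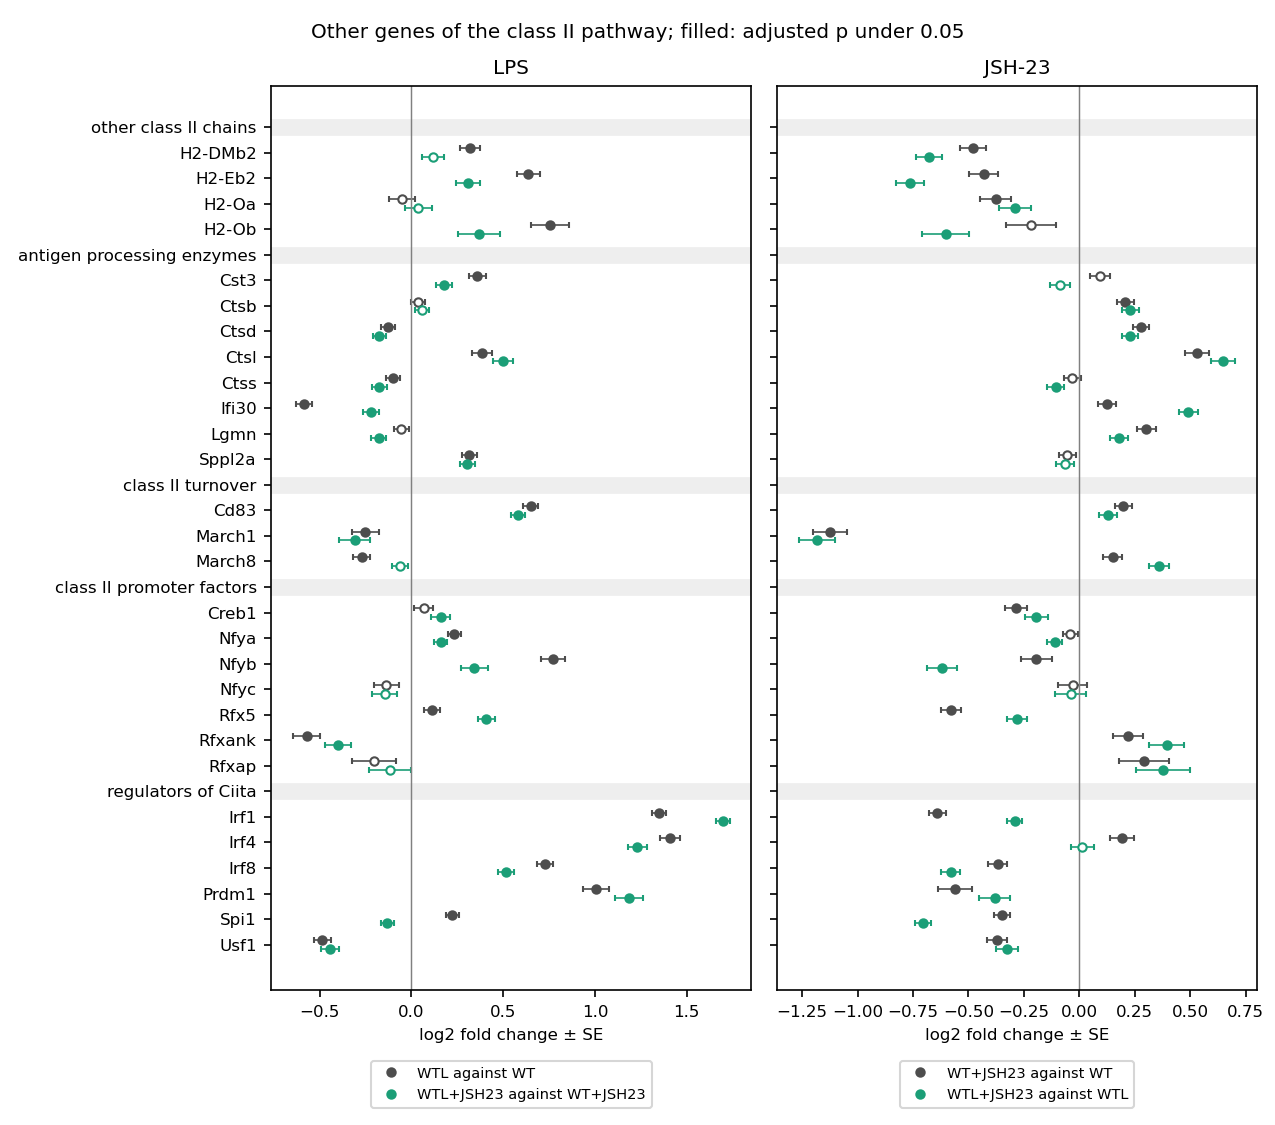
Log2 fold change ± SE of the other genes of the class II pathway with LPS (left) and with JSH-23 (right) on TMM scaling, grouped by role (6 of the 7 regulators of Ciita are drawn), with filled points for an adjusted p under 0.05. March1 lies farthest to the left with JSH-23 (-1.13 without LPS and -1.18 with it), and Irf4 and Irf1 farthest to the right with LPS.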

How the data were processed

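RNA of 12 libraries of mouse BMDC in 4 groups of 3 was analysed. The authors trimmed reads with Trim Galore, aligned them with STAR (2.6.0c in the submitters' processing notes, another patch release in the study's reporting summary) to mm10 and quantified genes with RSEM. The GENCODE release, and which of the 2 RNA selection kits named by labels and methods applied, were not settled. The deposited expected counts are RSEM estimates, which divide reads that fit several genes, without normalization between libraries. The deposited TPM were computed by the authors per transcript length. Symbols and positions came from GENCODE M21 (GRCm38) and matched 55154 of 55335 identifiers, and promoters came from RefSeq.

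Expected counts were rounded and tested with edgeR 4.0.16 in R 4.3.3: filterByExpr (14357 genes), TMM, quasi-likelihood F-tests with one mean per group over all libraries (8 residual degrees of freedom) and Benjamini-Hochberg adjustment over all genes. Genes passed at an adjusted p under 0.05. SE is the absolute log2 fold change divided by the square root of F. The code was tested on simulated data. Factors were 0.859 to 0.880 in WTL, 0.939 to 0.956 in WTL+JSH23, 1.08 to 1.095 in WT and 1.11 to 1.12 in WT+JSH23. Alternatives were DESeq2 1.42.0, its size factors, upper quartile scaling, limma 3.58.1 on log2(TPM + 1) for genes with a mean of at least 1 TPM, other filters on low counts, a replicate block and leaving out each library. Scaling by library totals was added after seeing the data, as were the list counts without WTL+JSH23 replicate 3. The range over 5 scalings covers TMM, DESeq2 size factors, upper quartile, library totals and TPM.

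The 7 genes and the lists were chosen with earlier results of these data known. Named genes are the 7, the 5 most and 5 least like Ciita, the 5 most like the classical chains and, per list, the largest rise and fall with LPS without JSH-23 and genes near 0; further list genes were picked after their values were seen. Values of 1 listed regulator of Ciita are not reported here, though list counts include it. The methods of the study call the 3 libraries of a condition biological replicates, and the labels do not say which animals or cultures they came from. No pair of replicates agreed within sampling noise.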

Additional observations from a re-analysis of the deposited data

Results flagged for a closer look

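The difference between the LPS changes with and without JSH-23 passed the test for 2 of the 7 genes and for 18% of all genes tested. For Ciita the LPS change was larger with JSH-23, by 0.41 on the log2 scale, and the fold changes were 1.48 with JSH-23 and 1.11 without it. For H2-Ab1 it was smaller with JSH-23, with a difference of -0.17, and the fold changes were 1.22 and 1.37. The H2-Ab1 call held under 3 of 5 scalings and in 5 of 12 fits with 1 library left out.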

How the results depend on the processing

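Over all alternatives the log2 fold changes of single genes kept their side of the threshold and direction in 622 cases, were called in 20 more, lost their call in 26 and changed sign in 18. Sign changes came from library totals and from TPM. For LPS without JSH-23 the values were -0.12 and -0.13 for H2-Aa, -0.029 and -0.035 for H2-Eb1, -0.10 and -0.11 for Cd74, and -0.17 and -0.14 for Ciita. For LPS with JSH-23 they were -0.13 and -0.10 for H2-Aa, -0.091 and -0.089 for H2-Eb1, and -0.10 and -0.078 for Cd74. The difference of LPS changes was 0.025 for H2-Aa and 0.033 for H2-DMb1 in TPM, and 0.00099 with library totals and 0.036 in TPM for Cd74. These shifts follow from the construction of the scalings, since the median of all genes shifted with them. With library totals 4 of the 7 genes passed for JSH-23 with LPS. For the difference of LPS changes, 5 passed with DESeq2, 4 with DESeq2 size factors, 1 with library totals, and 1 to 4 when 1 library was left out. The share of higher calls among all calls with LPS and JSH-23 was 50.3% with TMM, 37.7% with upper quartile scaling, 20.9% with library totals and 24.6% in TPM. For JSH-23 with LPS it was 50.3% with TMM, 70.9% with library totals and 68.6% in TPM, and for the difference of LPS changes 53.1%, 79.3% and 80.7%.

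Under library totals, 2106 of 14357 genes rose and 8601 fell with LPS. With LPS and JSH-23, 2011 rose and 7601 fell, and with JSH-23 in LPS-treated cells 5460 rose and 2241 fell. The list counts below are to be read against these. The further class II chains had 1 fall with LPS and, with JSH-23 present, 0 rises and 1 fall. The processing genes had 0 rises and 5 falls with LPS, 1 rise with LPS and JSH-23, and 0 falls with JSH-23 in LPS-treated cells. Turnover genes had 2 falls with LPS and JSH-23. Promoter factors had 1 rise and 6 falls with LPS, 1 rise and 3 falls with LPS and JSH-23, and 2 falls with JSH-23 in LPS-treated cells. Regulators of Ciita had 1 rise with JSH-23 in LPS-treated cells. Leaving out WTL+JSH23 replicate 3 left 1 rise among promoter factors in that comparison.

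When 1 library was left out, the transcript length difference of H2-Aa ranged from -0.105 to 0.387 bases and that of H2-DMa from -0.834 to 2.93 bases, both ranges including 0. For H2-Ab1 it ranged from -2.81 to -2.12 and for Ciita from -122 to -91.8, with adjusted p = 0.0525 in the exact permutation test without any 1 of the WT+JSH23 libraries. The 4 TPM ratios kept their direction and call.

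With the replicate number as a block, the deviations of same-numbered libraries from their group means correlated at 0.014 to 0.061, so the numbers were not taken as pairs. WT and WTL libraries each correlated best with their own number, as a hint from the data, and WT+JSH23 replicate 1 did not. The block called 7, 6 and 3 genes for LPS without JSH-23, LPS with JSH-23 and their difference, compared with 7, 6 and 2 without it, the addition being H2-Eb1 (-0.15, adjusted p = 0.0188), and it changed no other call.

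Depth set no limit for the 7 genes, which had at least 1921 counts in every library, while the choice of scaling, which moved the median of all genes from -0.05 to -0.38 with LPS, limited them more.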
